A study of Homo sapiens with 9 samples.

Results

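The genes described here are those of the aryl hydrocarbon receptor pathway in HEK293T cells: the receptor AHR, its partner ARNT, its repressor AHRR and the target genes CYP1A1, CYP1B1 and TIPARP. They were chosen by name, with earlier results of these data known, and matched by their Ensembl identifiers. They make up 6 of the 57500 genes in the count files. HEK293T is an established human embryonic kidney cell line that expresses a viral large T antigen, so each library describes a bulk culture of a transformed line and not a tissue. The cells were incubated for 5 h with 10 µM HBC530, with 10 µM MsOc3HBC or with the vehicle DMSO, with 3 biological replicates of each treatment, and their poly(A) RNA was sequenced. HBC530 is a fluorogenic dye that binds the Pepper RNA aptamer without a covalent bond. MsOc3HBC is the same dye with an alkyl arm that ends in a mesylate, a leaving group through which it can alkylate a guanine of the aptamer. The comparisons ask whether either dye alters transcript levels in the cells, and whether the reactive arm makes a difference. No known agonist or antagonist of the receptor was among the samples analysed here.

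The aryl hydrocarbon receptor is a transcription factor of the bHLH-PAS family that rests in the cytosol with HSP90 and the co-chaperone p23. When a planar aromatic ligand binds, the receptor enters the nucleus, pairs with ARNT and binds short DNA elements near genes of xenobiotic metabolism. CYP1A1 and CYP1B1 encode cytochrome P450 enzymes that oxidize aromatic compounds, while AHRR (which competes for ARNT) and TIPARP (which ADP-ribosylates the receptor) act back on the pathway. ARNT is also the partner of the hypoxia-inducible factors.

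All 6 genes are protein-coding, and positions are those of the count files on GRCh38. AHR (ENSG00000106546) lies on chromosome 7 from 17298622 to 17346152 on the plus strand, and ARNT (ENSG00000143437) on chromosome 1 from 150809705 to 150876768 on the minus strand. AHRR (ENSG00000063438) lies on chromosome 5 from 304176 to 438291 on the plus strand. CYP1A1 (ENSG00000140465) lies on chromosome 15 from 74719542 to 74725610 and CYP1B1 (ENSG00000138061) on chromosome 2 from 38066973 to 38109902, both on the minus strand. TIPARP (ENSG00000163659) lies on chromosome 3 from 156673235 to 156706770 on the plus strand.

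The promoter windows of CYP1A1 and TIPARP are shown because the libraries of these target genes did not overlap between either dye and DMSO, and their windows hold the core of the element that AHR and ARNT bind, GCGTG. The sequences are RefSeq windows on GRCh38.p14, from 250 bases before the transcription start to 50 bases from it, written 5′ to 3′ in the direction of the gene. Capitals mark GCGTG, or CACGC where the element lies on the other strand.
CYP1A1, chr15:74725479-74725778, minus strand: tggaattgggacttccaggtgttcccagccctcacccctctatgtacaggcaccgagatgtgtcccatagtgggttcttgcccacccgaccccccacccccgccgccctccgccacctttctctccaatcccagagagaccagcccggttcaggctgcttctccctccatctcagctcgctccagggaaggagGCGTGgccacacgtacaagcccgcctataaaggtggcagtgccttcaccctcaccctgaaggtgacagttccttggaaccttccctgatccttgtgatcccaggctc
TIPARP, the most upstream of 3 starts, chr3:156674340-156674639, plus strand: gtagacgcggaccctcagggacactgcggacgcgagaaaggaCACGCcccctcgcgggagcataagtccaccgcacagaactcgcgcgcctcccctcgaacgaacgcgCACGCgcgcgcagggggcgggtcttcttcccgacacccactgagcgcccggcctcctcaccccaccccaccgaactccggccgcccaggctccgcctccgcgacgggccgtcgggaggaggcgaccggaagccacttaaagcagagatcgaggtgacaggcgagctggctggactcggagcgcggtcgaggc

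Windows were at hand for 5 of the 6 genes, 8 windows in all, and CYP1B1 had no entry. GCGTG was searched on both strands. It stood once in the CYP1A1 window, from 57 to 53 bases before the start, and at 2 places in the first TIPARP window, beginning 208 and 142 bases before the start. It also stood once in the AHR window, 37 bases after the start, and at 3 places in the windows of the 2 AHRR starts. The ARNT window and the other 2 TIPARP windows did not hold these letters. The related core ACGTG, which is bound by ARNT with hypoxia-inducible factors as GCGTG also can be, stood at 2 overlapping places in the AHR window and once in the CYP1A1 window. Among 35116 RefSeq windows of the same length, 36.5% held GCGTG and 21.4% held ACGTG, so either match is common.

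The libraries held between 28056929 and 62205366 counts on genes, with the lowest totals in replicate 3 of HBC530 (34963314) and of MsOc3HBC (28056929). These 2 libraries also stood apart on the first principal component of 18041 genes, which took 38.1% of the variance, at 36.37 and 45.24 against -19.39 to -3.71 for the other 7. The 6 markers of the kidney line (PAX2, NEFM, NEFL, VIM, KRT8 and KRT18) were present in every library, with summed levels from 642.4 to 657.0 CPM (counts relative to the library total, scaled with TMM factors) in DMSO, 683.4 to 781.8 with HBC530 and 655.4 to 784.4 with MsOc3HBC. Markers of hepatocytes, leukocytes, endothelium and fibroblasts summed to 23.97 to 33.69, 25.97 to 35.63 and 20.38 to 28.53 CPM. Most of this was COL1A1 (19.4 to 35.2 CPM), and 5 of these 8 markers had at most 10 counts in every library. Treatments were tested against each other, 3 libraries each, by the quasi-likelihood F test of edgeR, with p-values adjusted by Benjamini-Hochberg over all genes tested. A gene is said to have passed the test at an adjusted p under 0.05. In bulk samples, fewer cells that express a gene and less RNA per cell cannot be told apart.

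Per kilobase of exon, ARNT was the most abundant of the 6 transcripts (mean over 9 libraries 7.75 CPM per kb, range 5.86 to 9.17). TIPARP followed with 2.69 (1.54 to 4.17), AHRR with 1.62 (1.37 to 1.82), AHR with 0.630 (0.547 to 0.727), CYP1B1 with 0.531 (0.257 to 0.914) and CYP1A1 with 0.137 (0.0479 to 0.252). Within a treatment most neighbours in this order kept apart, but with HBC530 the levels per kb of TIPARP (1.54 to 2.29) and AHRR (1.37 to 1.59) overlapped. On this scale, which divides by all exonic bases, AHR and CYP1B1 changed places. In DMSO, CYP1B1 (0.666 to 0.914 CPM per kb) lay above AHR (0.547 to 0.631), whereas with HBC530 (0.257 to 0.468 against 0.632 to 0.706) and MsOc3HBC (0.285 to 0.535 against 0.555 to 0.727) it lay below. The level of AHR is uncertain, since 35.6% of its exonic bases are shared with a readthrough gene on the same strand (ENSG00000283321, with 0 counts in every library), where reads may have been left uncounted. Its place relative to CYP1B1 in each treatment, and so the change of places, is uncertain for the same reason.

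**Figure D1:**
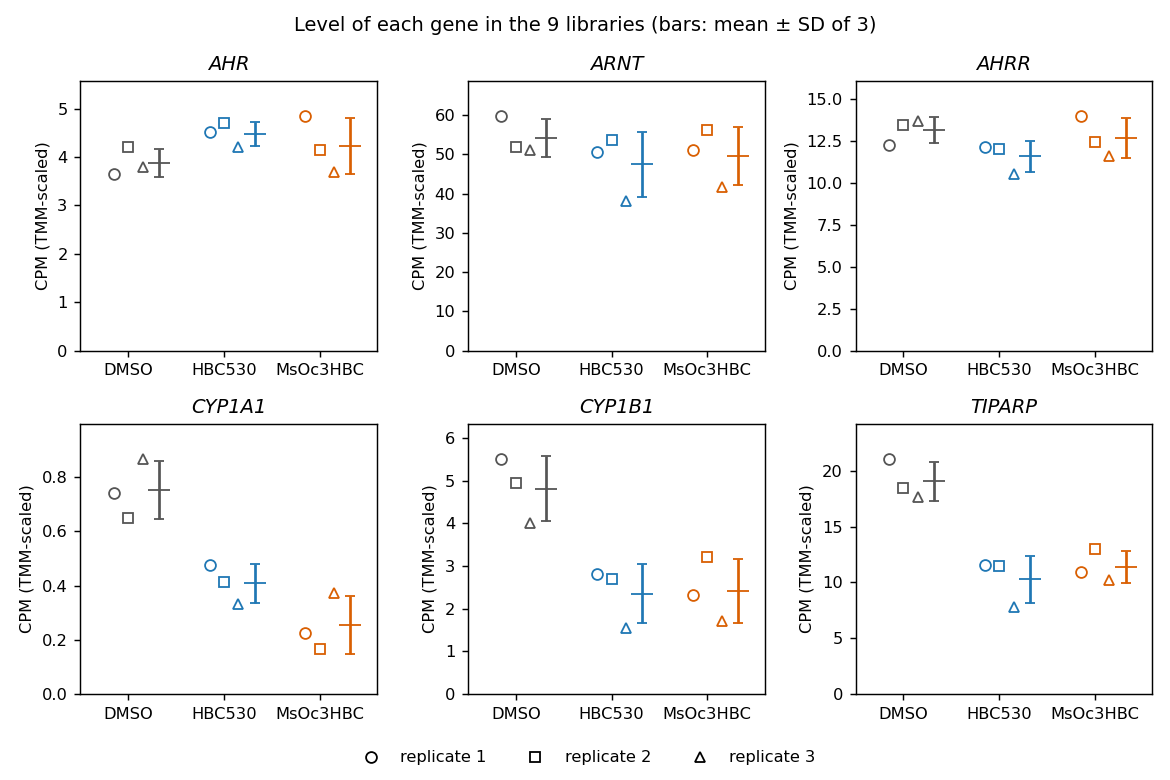
Level of each of the 6 genes in CPM after TMM scaling (vertical axis, from 0) in the 3 DMSO (grey), 3 HBC530 (blue) and 3 MsOc3HBC (orange) libraries. Circles, squares and triangles are replicates 1, 2 and 3, and the bars beside them are the mean ± SD of 3 libraries; for CYP1A1, CYP1B1 and TIPARP every library with a dye lies below every DMSO library.

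The receptor itself was not called different with either dye. AHR stood at 3.64, 4.21 and 3.80 CPM in DMSO replicates 1 to 3, at 4.51, 4.70 and 4.21 with HBC530 and at 4.84, 4.15 and 3.69 with MsOc3HBC. The HBC530 libraries lay above the DMSO libraries marginally (lowest 4.212 against highest 4.205), and the MsOc3HBC libraries overlapped them. The log2 fold change was 0.21 with HBC530 (SE 0.116, 95% confidence interval -0.05 to 0.47, adjusted p = 0.751, edgeR) and 0.13 with MsOc3HBC (SE 0.139, -0.17 to 0.44, adjusted p = 0.75). An antisense lncRNA shares 270 bases with AHR but had at most 5 counts.

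ARNT, the common partner of the family, also did not pass the test. It stood at 59.8, 51.9 and 51.0 CPM in DMSO, at 50.6, 53.7 and 38.2 with HBC530 and at 51.2, 56.2 and 41.7 with MsOc3HBC. Replicate 3 of both dyes was the lowest library of its group, and the groups overlapped. The log2 fold changes were -0.19 (SE 0.129, 95% interval -0.47 to 0.10) and -0.12 (SE 0.12, -0.38 to 0.14).

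AHRR, the repressor that is itself a target of the receptor, had 12.26, 13.5 and 13.7 CPM in DMSO, 12.18, 12.03 and 10.6 with HBC530 and 14.0, 12.5 and 11.6 with MsOc3HBC. The HBC530 libraries lay just below the DMSO libraries, with a log2 fold change of -0.18 (SE 0.103, 95% interval -0.41 to 0.05, adjusted p = 0.751, edgeR). The MsOc3HBC libraries overlapped them, with a log2 fold change of -0.05 (SE 0.11, -0.29 to 0.20), which turned to 0.0079 without MsOc3HBC replicate 3. AHRR shares 3.2% of its exonic bases with PDCD6, which held more counts (mean 2458.3 against 613.9).

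CYP1A1, CYP1B1 and TIPARP stood lower in every library with either dye than in any DMSO library. Of all genes, 6.64% lay so with HBC530 and 8.96% with MsOc3HBC, and both dyes were compared with the same DMSO libraries. Not all targets of the receptor did so, since AHRR overlapped DMSO with MsOc3HBC. The 5 other target genes tested, described below, had median log2 fold changes of -0.0096 with HBC530 and -0.0033 with MsOc3HBC. CYP1A1, the P450 enzyme most used as a readout of the receptor, was the rarest of the 6. It had 34, 39 and 54 reads in DMSO, 25, 24 and 11 with HBC530 and 10, 9 and 10 with MsOc3HBC, and the smallest of these counts, 9, has a 95% Poisson interval of 4.12 to 17.1, which covers counting error only.

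In CPM, CYP1A1 stood at 0.742, 0.651 and 0.866 in DMSO, 0.476, 0.415 and 0.333 with HBC530 and 0.224, 0.165 and 0.373 with MsOc3HBC. Neither dye overlapped DMSO. With HBC530 the level was 55.4% of that in DMSO (95% interval 38.7 to 79.2%), which is -0.85 on the log2 scale (SE 0.233, adjusted p = 0.751, edgeR). With MsOc3HBC it was 31.3% (19.4 to 50.6%), which is -1.68 on the log2 scale (SE 0.315, adjusted p = 0.0924). Neither passed the test. MsOc3HBC replicate 2 lay under the limit of the filter on low counts in this comparison, 0.203 CPM. CYP1A1 was thus kept through its DMSO libraries, where it was higher, and its values with MsOc3HBC are a description only. Its close relative CYP1A2 had at most 3 reads in any library.

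CYP1B1, the P450 enzyme of the same family that is expressed mostly outside the liver, had 252, 296 and 250 reads in DMSO, 148, 156 and 51 with HBC530 and 103, 176 and 46 with MsOc3HBC. In CPM these were 5.50, 4.94 and 4.01, then 2.82, 2.70 and 1.55, and then 2.31, 3.22 and 1.72. Every library with a dye lay below every DMSO library, and replicate 3 was the lowest of all 3 treatments. The level was 50.3% of that in DMSO with HBC530 (95% interval 36.9 to 68.55%) and 51.9% with MsOc3HBC (38.1 to 70.6%). The log2 fold changes were -0.99 (SE 0.202, adjusted p = 0.586, edgeR) and -0.95 (SE 0.203, adjusted p = 0.136), so neither passed. Without replicate 3 of the dye, the deviating library, they were -0.79 and -0.78 (adjusted p = 0.214 and 0.111, edgeR).

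CYP1B1 shares 11.3% of its exonic bases with the antisense gene CYP1B1-AS1, and the strand setting of the counting is not given in the sources used here, so reads of the 2 genes may be mixed. CYP1B1-AS1 had 28, 38 and 35 reads in DMSO, 15, 17 and 6 with HBC530 and 10, 18 and 4 with MsOc3HBC. These libraries, too, did not overlap DMSO. Its log2 fold changes were -1.18 (SE 0.256, adjusted p = 0.675, edgeR) and -1.25 (SE 0.298, adjusted p = 0.184).

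TIPARP, the ADP-ribosyltransferase induced by the receptor, fell with MsOc3HBC and was the only one of the 6 to pass the test. That call was kept in 7 of 15 alternative settings, with adjusted p from 1.04e-05 to 0.311, and was lost with limma-voom (0.0523) or without any one of the DMSO libraries. It had 964, 1106 and 1102 reads in DMSO, 607, 663 and 257 with HBC530 and 486, 710 and 273 with MsOc3HBC. In CPM these were 21.0, 18.5 and 17.7, then 11.55, 11.5 and 7.79, and then 10.9, 13.0 and 10.2. The groups with a dye lay well below DMSO, and their highest library, at 13.0 CPM, was under the lowest DMSO library, at 17.7. With MsOc3HBC the level was 60.03% of that in DMSO (95% interval 50.04 to 72.02%), which is -0.74 on the log2 scale (SE 0.12, adjusted p = 0.0471, edgeR). With HBC530 it was 54.4% (43.3 to 68.2%), which is -0.88 on the log2 scale (SE 0.148, adjusted p = 0.194). The spread over the HBC530 libraries (10.3 ± 2.15 CPM, SD, n = 3) was wider than over the MsOc3HBC libraries (11.4 ± 1.46). TIPARP shares 37 bases with TIPARP-AS1, which had at most 21 reads.

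**Figure D2:**
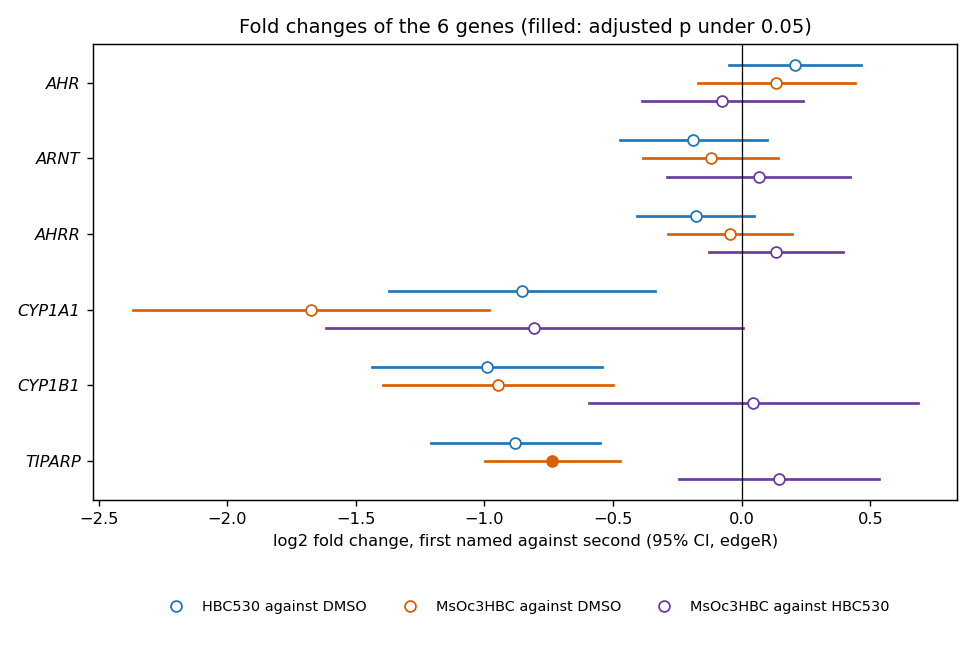
Log2 fold changes of the 6 genes (horizontal axis) with 95% confidence intervals from edgeR without a replicate block, for HBC530 against DMSO (blue), MsOc3HBC against DMSO (orange) and MsOc3HBC against HBC530 (purple). The filled point, TIPARP with MsOc3HBC at -0.74, is the only one with an adjusted p under 0.05; the intervals of CYP1A1, CYP1B1 and TIPARP against DMSO lie below 0, and those of AHR, ARNT and AHRR cross it.

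Set against the whole transcriptome, the counts read as follows. With HBC530, 0 of the 6 genes passed an adjusted p of 0.05 by edgeR, where 0.017% of all 17684 genes did. At an unadjusted p under 0.05 there were 3 of 6, all lower (CYP1A1, CYP1B1 and TIPARP), against 5.07% of all genes in either direction. All 3 HBC530 libraries lay below all 3 DMSO libraries for 4 of the 6, these and AHRR, against 6.64% of all genes. By p, TIPARP ranked 11, CYP1B1 16 and CYP1A1 65 of 17684. DESeq2 called 2 of the 6 (CYP1B1 and TIPARP), where it called 0.142% of its genes, and limma-voom called 0, where it called 0.0283%.

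With MsOc3HBC, 1 of the 6 passed the adjusted p by edgeR, where 0.154% of all 17514 genes did. At an unadjusted p under 0.05 there were 3 of 6, all lower and again CYP1A1, CYP1B1 and TIPARP, against 10.9% of all genes. For these 3 all MsOc3HBC libraries lay below all DMSO libraries, against 8.96% of all genes. By p, TIPARP ranked 24, CYP1A1 44 and CYP1B1 85. CYP1A1 was among the genes tested here only through its DMSO libraries, so its share in these counts is no support. DESeq2 called all 3, where it called 0.735% of its genes, and limma-voom called 0, where it called 0.12%. With 1 library left out in edgeR, the log2 fold change of TIPARP stayed between -0.85 and -0.66, but the calls changed. They numbered 0 of the 6 without DMSO replicate 1, 2 or 3 or MsOc3HBC replicate 1. In these fits 6, 12, 11 and 10 of all genes passed, against 27 with all libraries. CYP1B1 and TIPARP passed without MsOc3HBC replicate 2, where 23 of all genes did. CYP1A1 and TIPARP passed without MsOc3HBC replicate 3, where 76 of all genes did. With HBC530, TIPARP passed without HBC530 replicate 3 (log2 fold change -0.72, adjusted p = 0.0466, edgeR), where 6 of all genes did. Both comparisons use the same DMSO libraries, so they are not independent of each other.

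**Figure D3:**
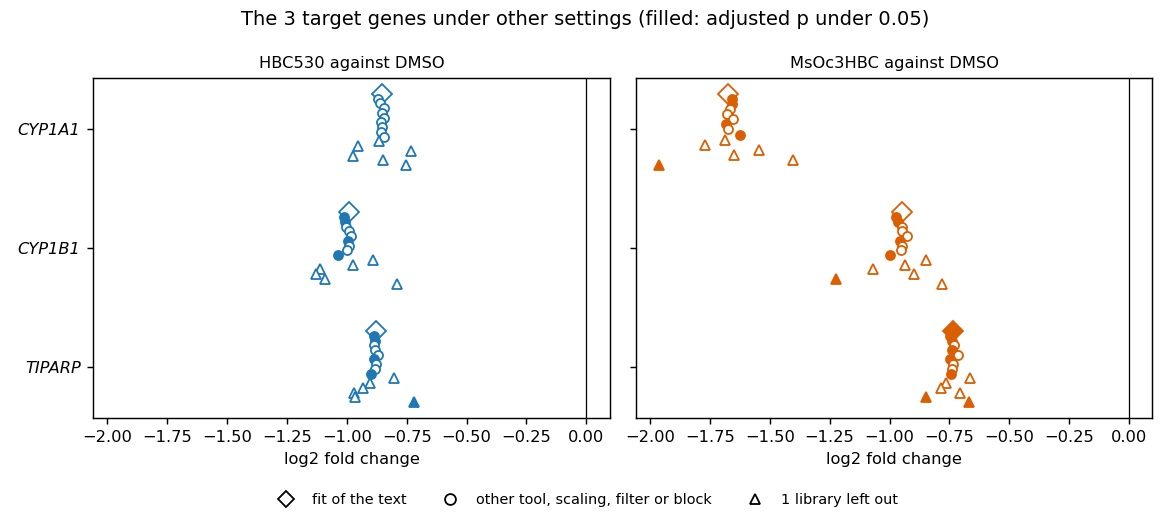
Log2 fold changes of CYP1A1, CYP1B1 and TIPARP against DMSO (horizontal axis) for HBC530 (left) and MsOc3HBC (right) under each setting. Diamonds are the fit of the text, circles other tools, scalings, filters or the replicate block, triangles fits with 1 library left out, and filled marks have an adjusted p under 0.05; every value lies below 0, from -0.97 to -0.72 for TIPARP with HBC530 and from -1.96 to -1.40 for CYP1A1 with MsOc3HBC.

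The dyes differ by the mesylate arm and were used at the same dose and time, and the libraries with MsOc3HBC were compared with those with HBC530 directly for all 6 genes. None of the 6 passed the adjusted p by edgeR, where 0.0% of 17397 genes did, and none had an unadjusted p under 0.05 in this fit without a block, where 7.32% of genes did. Limma-voom called 0 of the 6 and 0.0% of genes. DESeq2 called 0.304% of its genes and none of ARNT, AHRR and TIPARP, and gave AHR, CYP1A1 and CYP1B1 no adjusted p. CYP1A1 was the farthest from 0: its level with MsOc3HBC was 57.2% of that with HBC530 (95% interval 32.6 to 100.2%), which is -0.81 on the log2 scale (SE 0.352, adjusted p = 0.679, edgeR). The libraries overlapped, since MsOc3HBC replicate 3 (0.373 CPM) lay above HBC530 replicate 3 (0.333).

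In the same fit without a block, the log2 difference between the dyes was 0.05 for CYP1B1, with a 95% interval of -0.59 to 0.69. For TIPARP it was 0.14 with an interval of -0.24 to 0.53. For AHR, ARNT and AHRR it was -0.08 (-0.39 to 0.24), 0.07 (-0.29 to 0.42) and 0.13 (-0.13 to 0.39). Libraries of these 2 treatments with the same replicate number deviated together, and with the replicate number as a block 11.4% of all genes passed the adjusted p. None of the 6 genes did with the replicate block. At an unadjusted p under 0.05 the block gave 1 of the 6, CYP1A1 (log2 fold change -0.82, adjusted p = 0.177, edgeR), where 27.2% of all genes did. Without replicate 3 of both dyes, CYP1A1 stood at -1.21 (adjusted p = 0.075, edgeR) and CYP1B1 and TIPARP at 0.0087 and 0.051.

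Beyond the 6 genes, 74 genes of 7 lists around the receptor were looked up, of which 57 had enough reads to test. Of 14 other target genes, 5 could be tested and none passed in any comparison. ALDH3A1, an aldehyde dehydrogenase, stood at 0.25 on the log2 scale with HBC530 and -0.0033 with MsOc3HBC. CYP2S1, another P450 enzyme, stood at 0.012 and -0.16, and NEDD9, a scaffold protein, at -0.10 and -0.0016. The median of the 5 was -0.0096 with HBC530 and -0.0033 with MsOc3HBC. UGT1A1 and UGT1A6, enzymes of glucuronidation, were at 0 in every library. Part of their exonic bases is shared with other UGT1A genes (for UGT1A1, at most 49.9% with any 1 of them). Reads on that part may have been left uncounted, which was not tested.

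The genes of the cytosolic complex did not pass either (5 of 5 tested, medians 0.081 and -0.11). The chaperone HSP90AB1 stood at -0.04 with HBC530 and -0.16 with MsOc3HBC, and the kinase SRC at 0.081 and -0.11. Of the bHLH-PAS relatives, 11 of 13 were tested and 0 passed against DMSO, with medians of -0.079 and -0.12. Of these, EPAS1 (the hypoxia-inducible factor 2 alpha) stood at -0.13 and -0.23, NPAS1 at 0.15 and -0.24 and NPAS2 at -0.079 and -0.25.

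All 16 coregulators and turnover factors were tested and 0 passed against DMSO (medians -0.20 and -0.13). CUL4B, the ubiquitin ligase scaffold with which the receptor has been found, stood at -0.26 and -0.14, the NF-κB subunit RELA at 0.0073 and -0.22, and TBL3 at 0.11 and -0.19. Of the enzymes that make or break down ligands derived from tryptophan, 8 of 13 were tested and 0 passed (medians 0.09 and 0.089). The kynurenine aminotransferases KYAT1 (0.13 and 0.19) and KYAT3 (-0.04 and 0.18) and the amino acid oxidase IL4I1 (0.16 and -0.38) were closest to the threshold over the 3 comparisons. The electron donors of P450 enzymes, CYB5A, CYB5R3 and POR, stood at -0.017, 0.092 and 0.078 with HBC530 and at 0.067, -0.16 and -0.21 with MsOc3HBC, and 0 passed.

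The genes that ARNT controls with hypoxia-inducible factors had the lowest median against DMSO of the 7 lists. The lists were chosen with earlier results of these data known, so the counts for this list are a description only. With MsOc3HBC, 2 of the 9 tested passed, both lower, where 0.154% of all 17514 genes passed in either direction. They were SLC2A1, the glucose transporter GLUT1, and ADM, the vasodilator peptide adrenomedullin. SLC2A1 had 99.6 ± 0.966 CPM in DMSO and 63.2 ± 2.81 with MsOc3HBC (SD, n = 3), which is -0.65 on the log2 scale (SE 0.0865, adjusted p = 0.014, edgeR). ADM had 14.9 ± 0.612 and 9.25 ± 0.609 CPM, which is -0.69 on the log2 scale (SE 0.103, adjusted p = 0.031). EGLN3, an oxygen-sensing prolyl hydroxylase, missed the threshold at -0.62 (SE 0.111, adjusted p = 0.0728). Neither call held whichever library was left out. Without DMSO replicate 1, 2 or 3 or MsOc3HBC replicate 1, 0 of the 57 genes passed, where 6, 12, 11 and 10 of all genes did. Without MsOc3HBC replicate 2, SLC2A1 alone of the 57 passed, where 23 of all genes did. Without MsOc3HBC replicate 3, ADM, SLC2A1 and EGLN3 passed, where 76 of all genes did. By limma-voom ADM and SLC2A1 both passed (21 of all genes), whereas ADM did not with all 9 libraries in 1 fit (27 of all genes).

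With HBC530, 0 of the 57 pathway genes passed by edgeR, DESeq2 or limma-voom. At an unadjusted p under 0.05 there were 7, all of them lower and all among the 9 genes of ARNT with hypoxia-inducible factors, whose log2 fold changes ran from -0.57 to -0.16 (median -0.37), where 5.07% of all genes in either direction had such a p. With MsOc3HBC the same count was 9 of 57, all lower, 8 of them from this list (median -0.41, from -0.69 to 0.16), where 10.9% of all genes did. The median over all genes tested was 0.0046 and 0.012 in the 2 comparisons.

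Between the dyes, 0 of the 57 pathway genes passed by edgeR or limma-voom, with 8 at an unadjusted p under 0.05 by edgeR, where 7.32% of all genes had one. With the replicate block 12 of the 57 passed, where 11.4% of all genes did, 2 higher and 10 lower with MsOc3HBC. With the block, the higher genes were VEGFA, the angiogenic growth factor (log2 fold change 0.31, adjusted p = 0.00433, edgeR), and KYAT3 (0.21, adjusted p = 0.045). Among the lower ones were NPAS1 (-0.39, adjusted p = 0.00616), SLC2A1 (-0.27, adjusted p = 0.0108) and ADM (-0.31, adjusted p = 0.0256).

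**Figure D4:**
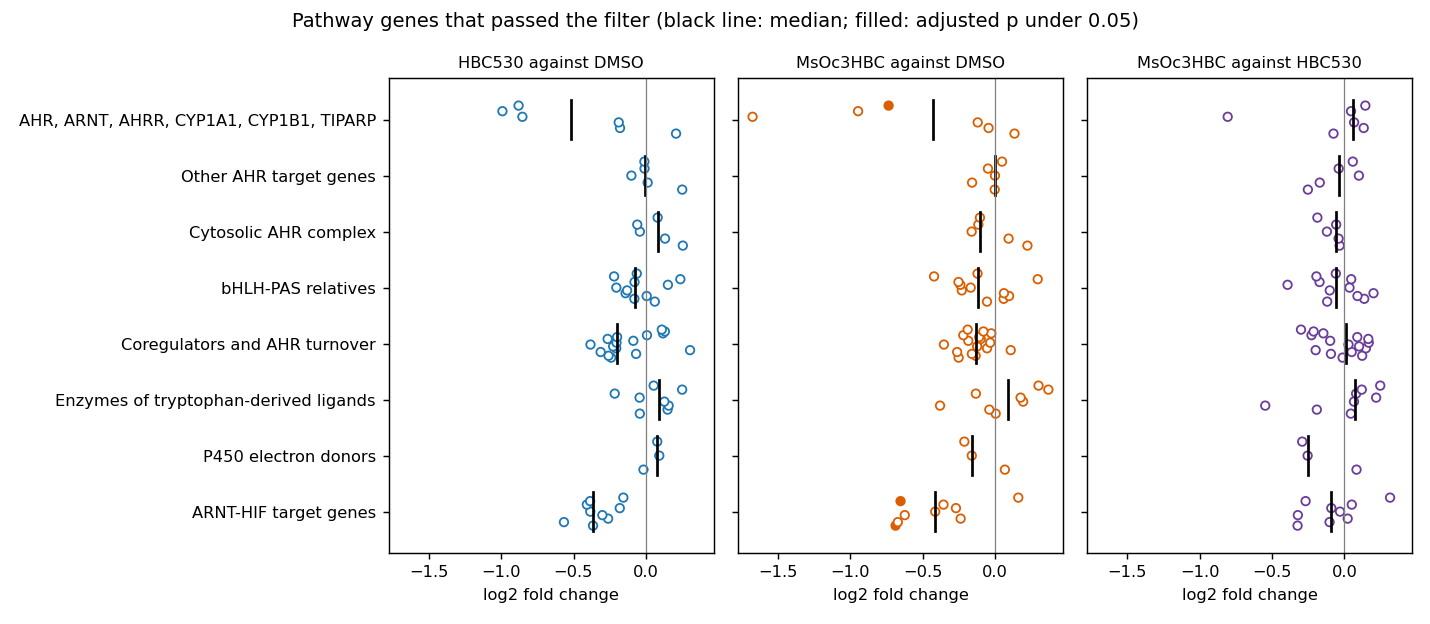
Log2 fold changes of the 6 genes and of the tested genes of 7 pathway lists (rows) in the 3 comparisons (panels), 1 point per gene, with the median of each list as a black line. Filled points have an adjusted p under 0.05 by edgeR without a replicate block: TIPARP, ADM and SLC2A1 with MsOc3HBC against DMSO, and none in the other panels. The median of the ARNT-HIF genes is -0.37 with HBC530 and -0.41 with MsOc3HBC.

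The profiles over the 9 libraries were also compared with those of 13612 genes, by Pearson's r of log2 CPM, as a description over libraries that share their treatment and depth. CYP1B1 and TIPARP ran together (r = 0.971), whereas CYP1A1 was less like them (0.582 and 0.651), and AHR ran the other way to all 3 (-0.281, -0.441 and -0.474). ARNT was also close to CYP1B1 (0.823) and TIPARP (0.751), and all 3 were low in replicate 3 of both dyes. The genes most like CYP1B1 were PCDH9 (0.989), DPYSL3 (0.988) and ALDH1A2 (0.984), and those most like TIPARP were HOXA13, SLC2A3 and GUCY1A1. The gene most like CYP1A1 was EGLN3 (0.973), followed by UTP4 (0.951) and TLCD3A (0.948). Those most like ARNT were BTBD7, DSC2 and CDC14B (0.994 to 0.996), those most like AHR were CACNB1 (0.938), INVS and SLC25A29, and those most like AHRR were NPIPB4 (0.956), TP73-AS1 and GOLGA8A.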

How the data were processed

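Per the labels and methods, reads were trimmed (Trimmomatic 0.36) and mapped to GRCh38 (STAR 2.5.2b) by the authors, who counted unique hits per gene with featureCounts of Subread 1.5.2, and the deposited files hold raw counts of 57500 genes in each of 9 libraries, from 28056929 to 62205366 per library. The annotation release, the strand setting and the counting of read pairs are not given in the sources used here. Tables of the authors' own comparisons (fold changes, p-values and normalized counts) were not used. Groups and replicate numbers are those of the labels.

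Each dye was compared with DMSO, and MsOc3HBC with HBC530, in R 4.3.3 with edgeR 4.0.16 (filterByExpr, TMM factors, quasi-likelihood F test, Benjamini-Hochberg adjustment over all genes tested). The filter removed 0 of the 6 genes, so the permutation test planned for genes below it was not needed. Its CPM limit was 0.183 to 0.21, and CYP1A1 in MsOc3HBC replicate 2 lay under it. In both comparisons of MsOc3HBC, the filter therefore kept CYP1A1 through the other group, where it was higher. Levels are CPM after TMM scaling, per kb of exon where genes are compared. DESeq2 1.42.0, limma-voom (limma 3.58.1), RLE and upper-quartile factors, other filters, all 9 libraries in 1 fit, the replicate block and each library left out were alternatives. The edgeR fit without a block and DESeq2 with its own size factors were tested on simulated data, and the other alternatives were not.

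Replicate numbers were taken to pair libraries where the deviations from the group means correlated above 0.1 in every pair over 18041 genes. This held for MsOc3HBC and HBC530 (0.172, 0.393 and 0.458), but not against DMSO (-0.116 to 0.18). Deviations of 3 libraries from their mean sum to 0, and replicate 3 of both dyes stood apart. The 3 correlations are therefore not independent of each other, and the rule cannot decide whether the libraries were paired. The 6 genes, the lists and the tests were chosen with earlier results of these data known. Of the lists, genes past an adjusted p of 0.05 and the 3 with the smallest p per list were named, and for each of the 6 genes the 3 of highest Pearson correlation among genes with a CPM of at least 1; 1 gene that the rule names is not reported here. VEGFA, PDCD6, CYP1A2, CYP1B1-AS1 and the UGT1A genes were named outside this rule, after their values were seen. Promoter sequences are from RefSeq.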

Additional observations from a re-analysis of the deposited data

How the results depend on the processing

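Of 274 recomputed log2 fold changes, 240 kept their direction and their side of the threshold, 19 newly passed it, 8 no longer did and 7 turned in sign. Of 92 recomputed counts of genes, 63 stayed within 1.5 times the count of the report, 16 were higher and 13 lower; the cause was not tested. With HBC530 against DMSO, 2 of the 6 genes (CYP1B1 and TIPARP) passed by DESeq2, by DESeq2 on genes with a mean count over 10, without a filter on low counts and with the replicate block, where 22, 26, 52 and 16 of all genes did. CYP1B1 then had log2 fold changes of -1.01, -1.01, -0.997 and -1.04 and TIPARP of -0.89, -0.88, -0.89 and -0.90. With 1 library left out, 0 to 1 of the 6 passed, where 2 to 6 of all genes did, and TIPARP ranged from -0.97 to -0.72. With MsOc3HBC against DMSO, 3 passed under the same 4 settings, where 129, 149, 250 and 149 of all genes did, with -1.66, -1.66, -1.68 and -1.63 for CYP1A1 and -0.97, -0.96, -0.95 and -0.9999 for CYP1B1. None, 0, passed by limma-voom, with upper-quartile factors, with at least 10 counts in every library or with all 9 libraries in 1 fit. There 21, 23, 22 and 27 of all genes passed, and TIPARP had -0.73 (adjusted p = 0.0523), -0.71 (0.0557), -0.74 (0.0563) and -0.74 (0.121). The filter of 10 counts in every library removed CYP1A1. Leaving out 1 library gave 0 to 2 of the 6, where 6 to 76 of all genes passed. CYP1A1 then ranged from -1.96 to -1.40, CYP1B1 from -1.22 to -0.78, TIPARP from -0.85 to -0.66 and AHRR from -0.12 to 0.0079, the latter without MsOc3HBC replicate 3.

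Of the 57 pathway genes with MsOc3HBC against DMSO, 4 passed by DESeq2 (129 of all 17553 genes) and by DESeq2 on genes with a mean count over 10 (149 of 15966), 5 without the filter (250 of 35395), and 0 to 3 with 1 library left out (6 to 76 of all genes). Between the dyes, 12 pathway genes passed with the replicate block (1990 of all 17397 genes), 8 without replicate 3 of both dyes (1635 of 17840), and 0 to 8 over the settings that leave out libraries. There AHR ranged from -0.18 to 0.0041 (above 0 without MsOc3HBC replicate 3), ARNT from -0.065 to 0.18, CYP1B1 from -0.22 to 0.21 and TIPARP from -0.011 to 0.23. ARNT and CYP1B1 were below 0 without HBC530 replicate 3 (-0.065 and -0.15) or MsOc3HBC replicate 2 (-0.027 and -0.22), and TIPARP was at -0.011 without HBC530 replicate 3. Against DMSO the replicate numbers did not meet the rule used for pairs, so the block values there are a comparison of settings only. The p-values measure the spread between 3 replicates of 1 cell line, and the counts of CYP1A1, 9 to 54 per library, limit what can be detected for it.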
